A study of Capra hircus with 3 samples.

Results

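Small RNA sequencing of cashmere goat skin read many RNAs of 18 to 20 nt. Some of them stood beside longer RNAs of 21 to 24 nt that hold the same sequence. A tag is a distinct sequence with its number of reads. The short tags of 18 to 20 nt numbered 483000 of the 4043974 distinct tags in the 3 libraries. They were chosen by their length and by a last trinucleotide other than CCA (the tail of mature tRNA). The reads of the longer tags only divided them into classes. A short tag was put in the start class when its sequence began a tag of 21 to 24 nt with 1000 or more reads over the 3 libraries, in the end class when it finished one, in the inner class when it lay inside one, and in the rest otherwise. The start class held 3376 tags, the end class 1876, the inner class 1432 and the rest 476316, against 2439 longer tags. Most of the distinct short tags thus lay in the rest, outside all of these longer tags. The word shortened follows from this rule, and no measurement here shows that a short tag was cut from a longer one. Skin of adult Shanbei White cashmere goats was taken in anagen (the growth phase of the hair follicle), catagen (regression) and telogen (rest), and the RNA of 10 goats was mixed into 1 library for each stage. The labels name no treatment or genetic change. With 1 library for each stage there is no replicate check, and stage and pool cannot be told apart. The 95% intervals given therefore cover counting error only. PCR copies of 1 molecule are counted as separate reads, so the intervals can be too narrow even for that.

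A miRNA is a short RNA that Dicer cuts from a hairpin and that an Argonaute protein then carries to messenger RNAs. Bases 2 to 8 from its 5′ end, the seed, lead the pairing with the target, while the 3′ end of the same miRNA often varies through trimming by exonucleases and through added bases, which gives the forms known as isomiRs. A short tag of the start class keeps the seed of the longer tag and lacks bases at the 3′ end. Fragments of ribosomal RNA and transfer RNA fall in the same length range and enter a small RNA library beside miRNAs.

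The sequences below are longer tags of groups with the most short reads, and the longer tag of the most-read end class tag. They show where the short form stops: lower case letters are the bases held by the short tag, and capitals are the bases it lacks. Other much-read short tags, such as the 20 nt tags of let-7b, let-7f and the unnamed group 2, are not printed here. Let-7b, let-7i, miR-101 (here with an extra base at its 5′ end), miR-143, miR-27b and miR-23a/miR-23b are miRNA groups. A double name is given to a whole group of tags with the same first 18 nt, and a single tag so named need not fit both miRNAs. The unnamed group 2 and the unnamed group 38 have no name in the shortened copy of the authors' annotation used here.
let-7b, 19 nt short tag: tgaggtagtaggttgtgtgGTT
let-7i, 19 nt short tag: tgaggtagtagtttgtgctGTT
miR-101, 19 nt short tag: gtacagtactgtgataactGAA
miR-101, 18 nt short tag: tacagtactgtgataactGAA
miR-143, 20 nt short tag: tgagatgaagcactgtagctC
miR-27b, 18 nt short tag: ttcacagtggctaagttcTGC
miR-23a/miR-23b, 19 nt short tag: atcacattgccagggatttCCA
let-7a/let-7c, 20 nt short tag: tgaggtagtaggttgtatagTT
unnamed group 2, 19 nt short tag: cgcgacctcagatcagacgTG
unnamed group 38, 18 nt short tag, at the end of its longer tag: TGGGGcacctggtgctaaaccat
In the first 4 lines the first base that the short tag lacks is G, and both miR-101 lines stop at the same base of that miRNA. The let-7 forms of 19 nt stop 3 bases before the end of the 22 nt form, while the let-7a/let-7c form of 20 nt lacks only the final TT.

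The anagen library held 15997828 clean reads, the catagen library 18111912 and the telogen library 27016012. Reads under 18 nt had been removed by the authors before deposit, and their share of the high-quality reads was 3.38% in anagen against 2.66% in catagen and 0.57% in telogen. This order is that of the short tags below, and its part in the results was not tested. TPM here is the number of reads scaled to 1000000 clean reads of the library. For a tag without a read, a count of 0 allows up to 3 reads, or 0.188 TPM in anagen against 0.166 TPM in catagen and 0.111 TPM in telogen.

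Short tags made up a larger share of the anagen library than of the others. They held 1634371 reads in anagen, which is 10.2% of the clean reads (Wilson interval 10.20 to 10.23), 1245707 reads or 6.88% in catagen (6.87 to 6.89) and 1591168 reads or 5.89% in telogen (5.88 to 5.90). The start class held most of them, with 5.98% of the clean reads in anagen against 3.44% in catagen and 3.37% in telogen. The end class held 1.24% in anagen against 1.11% in catagen and 0.673% in telogen. The inner class was the smallest, with 0.151%, 0.119% and 0.0794%, respectively, and the rest held 2.85%, 2.21% and 1.77%. Anagen was therefore the highest in all 4 classes, and telogen the lowest, with intervals that did not overlap. The order of catagen and telogen in the start class was the reverse under some of the other definitions tried, for example with shares of the reads of 18 to 24 nt (4.58% and 4.80%). Reads of all tags of 21 to 24 nt did not follow this order, with 63.7% in anagen against 67.4% in catagen and 63.8% in telogen. Tags of 18 to 20 nt that do end in CCA, which are no members, held 0.388%, 0.701% and 0.397%, respectively.

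The rule's lower limit on the longer tags separated close values. The 3 longer tags just inside it had 1001, 1000 and 1000 reads over the 3 libraries, and the 3 just outside had 999 each. As many as 2050 member tags could be placed in more than 1 class, because longer tags overlap one another, and the order start, end, inner decided for them. Without these tags the start class held 2.53% of the clean reads in anagen against 0.889% in catagen and 1.20% in telogen, so that anagen was still the highest but catagen was below telogen.

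In the start class, anagen differed from the other libraries most at 19 nt on the scale of clean reads, and by the largest ratio at 18 nt. Tags of 18 nt made up 16.9% of the start reads in anagen against 9.74% in catagen and 7.22% in telogen. Those of 19 nt made up 37.4%, 25.6% and 26.9%, and those of 20 nt 45.6%, 64.7% and 65.8%, respectively. As shares of clean reads, the 19 nt start tags held 2.24% in anagen against 0.881% in catagen and 0.907% in telogen. The 20 nt start tags differed less, with 2.73% in anagen against 2.22% in catagen and 2.22% in telogen, whereas the 18 nt start tags held 1.01%, 0.335% and 0.243%. In the rest, 18 nt tags made up 22.5% of the reads in anagen against 17.5% in catagen and 10.2% in telogen. In the end class, the 18 nt share was 45.2% in anagen against 52.5% in catagen and 29.8% in telogen, so that catagen was the highest there.

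Few tags carried many of the start reads. The 10 start tags with the most reads held 38.2% of the class in anagen against 23.5% in catagen and 30.2% in telogen, and 84.2% of the 3376 start tags were read in all 3 libraries. Reads of start tags came from groups named for a miRNA for 46.3% in anagen against 28.5% in catagen and 36.2% in telogen. Groups whose longer tag ends in CCA gave 1.26%, 1.42% and 1.87%, and unnamed groups gave the other 52.4%, 70.1% and 62.0%, respectively. A first base T was found in 50.8% of the start reads in anagen against 36.6% in catagen and 45.8% in telogen, below the 80.4%, 76.9% and 72.6% of the longer tags. T at the first base, U in the RNA, is the base that Argonaute proteins hold best and is usual for miRNAs.

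The most-read short tag was the 19 nt form of let-7b, a member of the let-7 family, which is known for its role in developmental timing and differentiation. It had 98129 reads in anagen against 8388 in catagen and 50291 in telogen, which is 6134 TPM, 463 TPM and 1862 TPM. Anagen was thus far above catagen, with telogen between them. In log2, the ratio of TPM was 3.73 for anagen over catagen (exact 95% interval 3.70 to 3.76), then 1.72 for anagen over telogen (1.70 to 1.74) and -2.01 for catagen over telogen (-2.04 to -1.97). The 22 nt form of let-7b had 480445, 583490 and 746092 reads and log2 ratios of -0.10, 0.12 and 0.22 for the same pairs. The full-length form was therefore almost level between libraries in which the level of the 19 nt form differed widely. The 20 nt form of let-7b, longer by 1 base, had 28255 reads in anagen against 16546 in catagen and 34120 in telogen, with a log2 ratio of 0.95 for anagen over catagen and 0.48 for anagen over telogen.

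Let-7i, a family member with the same seed, gave the same order. Its 19 nt tag had 24159 reads in anagen against 2504 in catagen and 15285 in telogen, with a log2 ratio of 3.45 for anagen over catagen (exact interval 3.39 to 3.51), then 1.42 for anagen over telogen and -2.03 for catagen over telogen. The 22 nt form had 12301, 23474 and 21832 reads, so that in anagen the 19 nt tag was read more often than the full-length form and in catagen far less often. The 20 nt tags of let-7a/let-7c and let-7f had ratios nearer to those of their 22 nt forms. Let-7a/let-7c of 20 nt had 26088 reads in anagen against 19018 in catagen and 25310 in telogen, and its log2 ratio of anagen over catagen was 0.64 against 0.44 for its 22 nt form, and that of anagen over telogen 0.80 against 0.57. Let-7f of 20 nt had 16192, 14134 and 14992 reads and a log2 ratio of 0.38 for anagen over catagen, against 0.60 for its 22 nt form, and of 0.87 for anagen over telogen, against 0.76.

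miR-143, which is abundant in smooth muscle and other mesenchymal cells, had a 20 nt tag with 42672 reads in anagen against 9689 in catagen and 32961 in telogen. Its log2 ratio was 2.32 for anagen over catagen (exact interval 2.29 to 2.35) and 1.13 for anagen over telogen, while the 21 nt form, with 107656, 76763 and 183759 reads, had 0.67 and -0.02. The short form was thus higher in anagen than in telogen although the 21 nt form was level between these libraries.

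To compare short and longer reads within a sequence, tags of 18 to 24 nt with the same first 18 nt were put together as a 5′ group, and the short share was the share of its reads that came from start tags of 18 to 20 nt. Groups with the same first 18 nt can hold several miRNAs of a family, and their members share a library, so groups are not replicates of a stage. Of 1173 groups, 531 had at least 1000 reads in each library. The median short share of these 531 was 16.7% in anagen against 10.3% in catagen and 8.24% in telogen. In the 68 groups named for a miRNA, the medians were 5.83%, 1.16% and 2.59%, and in the 39 groups with the tRNA tail they were 2.05%, 0.401% and 1.27%. In the 424 unnamed groups they were 22.3%, 16.4% and 10.8%. Telogen was thus above catagen in the miRNA and tRNA groups and below it in the unnamed groups. Unnamed groups are those without a name in the shortened annotation. They can hold miRNAs, such as a group with the let-7 seed, and are not a single kind of RNA. Among the 55 groups with at least 10000 reads in each library, the median was 5.91% in anagen against 1.68% in catagen and 2.96% in telogen, with catagen the lowest.

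Counted by group, anagen had the higher short share than catagen in 337 of 531 groups with intervals that did not overlap, which is 63.5%, and the lower one in 78 groups, which is 14.7%. Of the 68 miRNA groups, 55 were higher in anagen and 0 were lower. Of the 39 groups with the tRNA tail, 32 were higher and 1 lower, and of the unnamed groups 250 were higher and 77 lower. Against telogen, anagen was higher in 454 groups, which is 85.5%, and lower in 1 group, which is 0.188%. The miRNA groups, with 58 higher and 0 lower, had nearly the same share as all groups here. Catagen was higher than telogen in 259 groups (48.8%) and lower in 150 (28.2%). The miRNA groups went the other way, with 8 higher in catagen and 38 lower, as did the tRNA groups with 2 and 25, whereas 249 unnamed groups were higher in catagen and 87 lower. The comparisons share libraries, so their counts are not independent of one another.

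Short reads outnumbered longer reads in few groups. The short share was above 50% in 73 of the 531 groups in anagen against 34 in catagen and 22 in telogen. Of the miRNA groups, 3 were above 50% in anagen against 0 in catagen and 1 in telogen. The highest miRNA group in anagen was the one named for miR-27b, a miRNA of the cluster that also holds miR-23b and miR-24. The name comes from 18 nt shared with a listed sequence that does not have the same first 18 nt. It is in doubt, since the group also holds tags that continue differently. Its short share was 83.1% in anagen (20097 of 24182 reads, Wilson interval 82.6 to 83.6) against 40.5% in catagen (39.9 to 41.1) and 46.4% in telogen (45.8 to 46.9). Its 18 nt tag had 14659 reads in anagen against 7672 in catagen and 8792 in telogen, and is shared with tags that continue in another way. The most-read 20 nt tag of the group was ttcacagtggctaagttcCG, where the capitals run from the first base that differs from the longer tag printed above. The 18 nt tag is thus the start of more than 1 sequence of the group.

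The 5′ groups of miR-101, a miRNA known to target the chromatin enzyme EZH2, were both at 47.8% short in anagen. The group that starts with TACAG was at 28.7% in catagen and 29.5% in telogen. The group with an extra G at its 5′ end was at 7.21% in catagen (2015 of 27929 reads) and 31.5% in telogen (10530 of 33376 reads). In this second group the 19 nt tags had 12198 reads in anagen against 1181 in catagen and 7399 in telogen. In the first, the 18 nt tags, which stop at the same base, had 10080, 833 and 3244 reads, while its 20 nt tags were near level with 8790, 9198 and 7317 reads. The higher catagen share of the first group thus came from tags of 20 nt.

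miR-23a/miR-23b had a short share of 29.8% in anagen against 10.1% in catagen and 7.63% in telogen, with 11270, 3337 and 2982 reads of 19 nt. The share of miR-143 was 23.4% in anagen against 8.42% in catagen and 11.4% in telogen. At the other end, 3 groups had the lowest short shares over the 3 libraries together among the 30 groups with the most reads, although in a single library another of the 30 could be lower. They were a group with the tRNA tail (0.55% in anagen against 0.186% in catagen and 0.376% in telogen), an unnamed group with the let-7 seed (0.466%, 0.377% and 0.362%), and miR-199a/miR-199c with an extra base at its 5′ end (0.933%, 0.305% and 0.494%). Their longer tags are printed here with no capitals, since few short reads exist to set against them.
group with the tRNA tail: gttcgtttcccggccaatgcacca
unnamed group with the let-7 seed: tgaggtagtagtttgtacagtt
miR-199a/miR-199c: tacagtagtctgcacattggtt
The let-7 seed, gaggtag in bases 2 to 8, was shared by 11 of the 531 groups, of which 5 had a miRNA name. Together their short share was 4.18% in anagen against 1.43% in catagen and 2.38% in telogen, and single groups ranged from 0.466% to 51.9% in anagen. Groups with 1 seed thus differed in how often they were read short.

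For the 9 let-7 miRNAs listed, 6 groups bore a name from the shortened annotation. A listed miRNA without a named group, here and below, may stand among the unnamed groups. The unnamed group with the let-7 seed, at 0.466% in anagen, is not among the 6. All 6 were higher in anagen than in catagen and than in telogen, as were 63.5% and 85.5% of all 531 groups. In catagen, 1 was higher and 3 were lower than in telogen, against 48.8% and 28.2% of all 531 groups. Let-7b had a short share of 10.2% in anagen against 2.03% in catagen and 4.46% in telogen, and let-7i of 51.9%, 9.01% and 32.6%. Let-7f, the lowest of the 6 in anagen, had 1.19%, 1.05% and 0.851%. Muscle miRNAs gave 2 groups of 4 listed, miR-1 and miR-206, whose reads differ most between the libraries, with 62266 reads of the miR-1 group in anagen against 1336469 in catagen and 540006 in telogen. The miR-1 group was 2.73% short in anagen against 1.48% in catagen and 1.55% in telogen, and miR-206 was 7.31%, 2.58% and 3.25%. No group with at least 1000 reads in each library bore the name of miR-133a or miR-133b, which does not show that their reads were few. The pooled short share of the 68 miRNA groups was 5.93% in anagen against 2.09% in catagen and 3.21% in telogen. Without the muscle groups it was 5.96%, 2.20% and 3.31%, so the order was the same and the differences were slightly smaller.

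In the other lists, most named groups were also higher in anagen. Listed miRNAs without a named group were not counted, and they are not shown to be absent or low. Red blood cell miRNAs gave 2 groups of 3 listed. miR-451, which Argonaute 2 matures without Dicer, was 5.91% short in anagen against 2.07% in catagen and 2.48% in telogen, and miR-486 was 9.19%, 1.03% and 1.71%. Epithelial miRNAs gave 2 groups of 11 listed, with miR-205 of the basal epidermis at 8.44%, 1.13% and 3.87%, and miR-183 at 1.68%, 0.971% and 0.871%, whose intervals overlapped. The miRNAs of the dermis and vessels gave 4 groups for 2 of 9 listed miRNAs, and 3 of the 4 were higher in anagen than in catagen. The exception was a miR-199a/miR-199c group that starts inside the usual miRNA, at 18.3% in anagen against 20.02% in catagen and 16.5% in telogen. Of 20 named groups of broadly expressed miRNAs, 16 were higher in anagen than in catagen and 0 lower, and 18 higher than in telogen and 0 lower. In catagen, 5 were higher and 9 lower than in telogen. For this pair, 48.8% of all 531 groups were higher and 28.2% lower, and 11.8% and 55.9% of the 68 miRNA groups. Of the 68 miRNA groups, 80.9% were higher in anagen than in catagen and 85.3% than in telogen. Of all 531 groups these shares were 63.5% and 85.5%, so the list lay near the miRNA groups as a whole. The lowest short share of the 20 groups in anagen was 0.958%, of a miR-320a group, and the highest that of miR-27b.

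The groups with the largest differences in the log odds of a short read, a ratio that weighs low shares as much as high ones, were these. Between anagen and catagen, a group with the tRNA tail was at 2.73% (36 short reads) against 0.0804% (2 short reads), miR-193a was at 10.9% against 0.453%, miR-140 was at 9.27% against 0.458%, and an unnamed group was at 60.3% against 6.76%. miR-140 is best known from cartilage. Its group, with 1820 short reads in anagen against 183 in catagen and 1989 in telogen, rests on far more reads than that of the tRNA tail, and was at 4.99% in telogen. Between anagen and telogen, miR-378/miR-378c was at 3.72% against 0.412%, and 2 unnamed groups were at 71.7% against 12.7% and at 20.3% against 1.72%. The other unnamed group named for this pair was that of the end class tag printed above, in which 2 short reads of 1798 stood against 1 of 10126. Between catagen and telogen, 2 unnamed groups were higher in catagen, at 51.1% against 9.48% and at 2.12% against 0.169%. The miRNA and tRNA groups with large differences were those of miR-140 and of the tRNA tail above, both lower in catagen.

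The base at which short tags of the start class stop differed between the libraries in miRNA groups. The first base missing was G for 48.8% of the start reads of miRNA groups in anagen against 18.6% in catagen and 37.8% in telogen. In TPM these reads were 13518 in anagen against 1819 in catagen and 4600 in telogen. A missing T had the largest share in catagen, with 29.4%, 46.1% and 37.7%, although in TPM, with 8151, 4513 and 4590, it too was highest in anagen. Tags that lack 3 bases of the longer tag gave 46.1% of the miRNA reads in anagen against 19.7% in catagen and 33.4% in telogen, and tags that lack 2 bases gave 27.2%, 56.0% and 42.3%. The 19 nt tag of let-7b, which lacks GTT, alone gave 98129 of the 204050 anagen reads that lack 3 bases. Of the miRNA group reads whose first missing base is G, it gave 98129 of 216259 in anagen, 8388 of 32953 in catagen and 50291 of 124287 in telogen. The shares of a missing G and of 3 missing bases thus rest in large part on that tag. In unnamed groups the missing base was G for 42.5%, 38.1% and 44.1% of the reads, and in groups with the tRNA tail it was C for 73.7%, 65.9% and 71.0%. The share of C is set in part by the CCA that defines these groups. A tag that lacks 2 or 3 bases of a longer tag ending in CCA lacks C first.

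Unnamed groups were the larger source of start reads in each library. The unnamed group 2 begins as 28S ribosomal RNA of mammals begins, which is background knowledge, as no ribosomal sequence was among the files used. Its 20 nt tag had 45972 reads in anagen against 44080 in catagen and 66152 in telogen, and its 19 nt tag had 41367, 21406 and 16587. The 20 nt tag was nearly level in TPM, with a log2 ratio of 0.24 for anagen over catagen and 0.23 for anagen over telogen. The 19 nt tag had a log2 ratio of 1.13 for anagen over catagen (exact interval 1.11 to 1.15) and 0.94 for catagen over telogen (0.92 to 0.97). The short share of the group was 53.6% in anagen against 52.6% in catagen and 40.7% in telogen. In this group, unlike let-7b, let-7i and miR-143, catagen was above telogen.

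The unnamed group 31 went against the order of most groups. Its longer tag is printed with the bases absent from the 20 nt tag in capitals.
unnamed group 31: cgacttagaactggtgcggaCC
Its short share was 36.8% in anagen (Wilson interval 36.1 to 37.5) against 41.7% in catagen (41.1 to 42.2) and 27.3% in telogen (26.9 to 27.8), so that catagen was the highest of the 3 libraries. It was the only group lower in anagen than in catagen among the 12 groups with the most short reads.

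Single tags were also compared between pairs of libraries. A tag with at least 100 reads in the pair was called when the log2 ratio of TPM was above 1 in size and the two-sided exact Audic-Claverie test on the reads gave p under 0.01, a test that compares libraries and not stages. Between anagen and catagen, 2765 of the 483000 members had enough reads, and 1056 (38.2%) were called higher in anagen and 500 (18.1%) lower. Of all 20137 clean tags tested, whatever their length, 22.5% were called higher in anagen and 26% lower. Between anagen and telogen, 1020 of 2922 members (34.9%) were called higher in anagen and 148 (5.07%) lower, against 11.2% and 28.7% of all tags. Between catagen and telogen, 647 of 2751 members (23.5%) were called higher in catagen and 502 (18.2%) lower, against 9.17% and 24.5% of all tags. Over all tags tested, the median log2 ratio was -0.28 between anagen and catagen, -0.52 between anagen and telogen and -0.24 between catagen and telogen, so that ratios above 0 lie above a typical tag. Those of the members were 0.40, 0.53 and 0.29. Scaling by size factors, which set the typical tag to about 0, raises every log2 ratio given here by 0.26, 0.54 and 0.28 for the same pairs, and leaves the short shares as they are. With it, 1208 members (43.69%) were called higher in anagen than in catagen and 350 (12.66%) lower, against 26.66% and 17.96% of all tags. Anagen had 1538 members (52.64%) called higher than in telogen and 58 (1.98%) lower, against 18.42% and 12.27% of all tags. Catagen had 922 members (33.52%) called higher than in telogen and 354 (12.87%) lower, against 13.59% and 18.43% of all tags.

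In the start class, 514 tags were called higher in anagen than in catagen and 235 lower, of 1356 tested. With edgeR's exact test at an assumed coefficient of variation of 0.4, in place of counting error alone, these fell to 148 and 18. The same test gave 69 higher and 4 lower in anagen against telogen, where 491 and 63 were called, and 15 higher and 13 lower in catagen against telogen, where 291 and 242 were called. Of the start tags of miRNA groups, 77 of 145 (53.1%) were higher and 11 (7.59%) lower. Against telogen, anagen was higher for 69 of 157 tags of miRNA groups and lower for 6, and in catagen 13 of 135 were higher than in telogen and 46 lower. In this last pair, the tags of all other groups were more often higher in catagen, with 278 higher and 196 lower of 1171. With size factors the miRNA tags were nearly even, with 25 higher and 32 lower in catagen, and the others had 406 and 136, so the direction of the miRNA tags in this pair rests on the scaling. Set against the ratio of its own 5′ group, the median start tag was higher in anagen than in catagen by 1.79 on the log2 scale at 18 nt, by 0.82 at 19 nt and by 0.24 at 20 nt. Against telogen the medians were 2.56, 1.41 and 0.58, and for catagen over telogen they were 1.20, 0.76 and 0.38. The difference from the group was thus larger for shorter tags in each pair.

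Tags of the end class, which lack bases at the 5′ end, came almost wholly from unnamed groups, with 1.53% of the reads from miRNA groups in anagen against 1.11% in catagen and 0.907% in telogen. The most-read was the 18 nt tag of the unnamed group 38, with 49647 reads in anagen against 79090 in catagen and 32942 in telogen. Its level in catagen was above that in telogen (log2 ratio 1.84, exact interval 1.82 to 1.86) and above that in anagen (anagen over catagen -0.49). The longer tag that ends with it had 1777, 3879 and 10086 reads. This short tag was therefore read more often than the tag that placed it in the class, and in telogen, where the longer tag was the highest, the short tag was the lowest. A 19 nt tag of the same longer tag had 11178 reads in anagen against 10990 in catagen and 7863 in telogen. Next came an 18 nt tag with 4172, 6630 and 3314 reads, whose sequence is found in 18S ribosomal RNA as background knowledge, and a 19 nt tag with 3314, 762 and 2148 reads. Capitals mark the bases that these last 2 tags lack.
end tag of 18 nt: CTTtggtgactctagataacc
end tag of 19 nt: ACCgcacgttcgtggggcacct

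Inner tags, which lack bases at both ends, were rare. The 4 with the most reads came from 3 unnamed groups, and capitals again mark the bases that they lack.
inner tag of 19 nt: TagtggttaggattcggcgcT
inner tag of 19 nt, second: GatccattggagggcaagtcT
inner tag of 18 nt: TagtggttaggattcggcgCT
inner tag of 18 nt, second: CggctcgtgcgtcgatgaaGAAC
The first has the sequence of the 5′ part of a glutamic acid tRNA as background knowledge, and had 359 reads in anagen against 555 in catagen and 334 in telogen. The tag shorter by 1 base from the same longer tag had 594 reads in anagen against 249 in catagen and 45 in telogen. These 2 tags, which differ by 1 base, thus had different orders, with catagen first in the longer and anagen first in the shorter. The longer tag of both was near level, with 526, 608 and 953 reads. The other 2 had 500, 167 and 478 reads, and 524, 116 and 195 reads, respectively.

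The rest was made of many tags with few reads. Of its 476316 tags, 82.5% were read once in all and 4.37% were found in all 3 libraries. Tags that lie within none of the sequences searched held 69.3% of its reads in anagen against 72.1% in catagen and 70.6% in telogen. Tags within a tag of 25 to 44 nt with at least 1000 reads held 11.8%, 12.1% and 13.1%, and tags with 1 mismatch to part of a longer tag held 10.5%, 7.76% and 8.71%. Tags equal to the start of a longer tag except for the last base or last 2 bases held 5.41%, 6.51% and 5.34%. Where only the last base differed, it was A for 72.4% of the reads in anagen against 71.0% in catagen and 74.0% in telogen, and T for 21.4%, 24.4% and 21.6%. A and U are the bases that nucleotidyl transferases add most often to the 3′ ends of miRNAs, which is given as background.

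The most-read tag of the rest matched none of the sequences searched, with 10113 reads in anagen against 5730 in catagen and 9659 in telogen. Of the next 5 by reads, 4 were the 19 nt short tag of a miRNA with an A added, and they are printed with that A in capitals, since the longer tag has another base there.
rest tag without a match: gttcaatgatgatttttat
miR-23a/miR-23b with A: atcacattgccagggatttA
let-7a/let-7c with A: tgaggtagtaggttgtataA
let-7b with A: tgaggtagtaggttgtgtgA
let-7f with A: tgaggtagtagattgtataA
The tags with A were near level between anagen and catagen, while the same tags without it were higher in anagen. The let-7b tag with A had 1619 reads in anagen against 1879 in catagen and 1813 in telogen, with a log2 ratio of -0.04 for anagen over catagen, while that of the 19 nt tag without A was 3.73. The miR-23a/miR-23b tag with A had 2261 reads in anagen against 3131 in catagen and 3280 in telogen, a log2 ratio of -0.29 for anagen over catagen, and its 19 nt tag, with 8174, 2586 and 2251 reads, had 1.84. For let-7a/let-7c the tag with A had 2275, 2295 and 2347 reads (log2 ratio of anagen over catagen 0.17) and the 19 nt tag 7447, 2225 and 3930 reads (1.92). For let-7f these were 1712, 1584 and 1342 reads (0.29) and 4403, 1349 and 1924 reads (1.89). In anagen over catagen, the tag with A thus lay below the tag without it in all 4 miRNA groups. Between catagen and telogen, the 4 tags with A were all higher in catagen, with log2 ratios of 0.51 to 0.82, whereas the 19 nt tags had ratios from -2.01 to 0.78.

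A tag within the listed miR-143 sequences, from the other arm of the hairpin, had 3331 reads in anagen against 339 in catagen and 1069 in telogen, with a log2 ratio of 3.48 for anagen over catagen and 2.40 for anagen over telogen.
miR-143, other arm: ggtgcagtgctgcatctct
Short tags of both arms of miR-143 were therefore higher in anagen than in catagen and telogen.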

How the data were processed

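RNA of 18 to 30 nt was cut by the authors from a denaturing gel of total RNA and sequenced on an Illumina/Solexa Genome Analyzer, so that the lower edge of the cut lies at the lengths studied here. Reads of low quality, with poly(A), with adapter faults or under 18 nt were removed by the authors, who then collapsed identical reads into tags. The deposited values are counts of reads without normalization for each tag, with its length and sequence, and the deposited filtering record gives the percent of high-quality reads in each class removed. No alignment or genome build enters these values. Lengths, classes, groups and shares were computed from the sequences with Python 3.11.15, NumPy 2.4.6, pandas 2.3.3 and SciPy 1.17.1. Shares have Wilson intervals and log2 ratios of TPM exact Clopper-Pearson intervals. Tags at 0 reads were set to 0.01 TPM. With 1 library per stage no quasi-likelihood fit could be made. edgeR 4.0.16 (R 4.3.3) was run as an alternative with an assumed coefficient of variation of 0.4. A 5′ group took the name of a tag in the annotation of the authors with the same first 18 nt, or of one that shares 18 nt with its most-read tag. The copy of this annotation was shortened, held 2699 tags, and leaves some miRNA groups unnamed, such as the group with the let-7 seed. The text names the tags with the most reads of each class (8, 4, 4 and 6), the 12 groups with the most short reads, the 4 groups with the largest difference in the log odds of each pair, and the 3 of the 30 largest groups with the lowest short share. Unless it falls under this rule, a list member is named where it is the highest or lowest of its list or where its list has only 2 groups. Members and lists were chosen with earlier results of these data known. Only the classing of tags, the calls between libraries and the intervals of the log2 ratios were tested on simulated data.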

Additional observations from a re-analysis of the deposited data

How the results depend on the processing

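The precision is set by 1 library for each stage, so that no difference can be compared with the spread between pools, and by the minimum length of 18 nt, below which no read was kept. In the start class, anagen held the largest share of clean reads under each definition tried (values for anagen, catagen and telogen). The shares were 8.04%, 5.16% and 4.60% with longer tags of 100 or more reads, 3.66%, 1.69% and 1.83% with 10000 or more, 6.12%, 3.54% and 3.45% with longer tags of 21 to 26 nt, and 6.34%, 3.68% and 3.57% with 1 mismatch allowed. With tags of several positions left out they were 2.53%, 0.889% and 1.20%, as shares of the reads of 18 to 24 nt 8.05%, 4.58% and 4.80%, and as shares of distinct tags 0.247%, 0.227% and 0.152%. Catagen was thus below telogen in 3 of these 7 settings and above it in the others.

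The median short share of 5′ groups was 10.4%, 5.98% and 4.87% in 1146 groups of at least 100 reads in each library, and 5.91%, 1.68% and 2.96% in 55 groups of at least 10000. It was 7.0%, 5.15% and 4.74% with groups by their first 20 nt and 20 nt tags only, and 32.2%, 24.6% and 18.7% over 18 to 22 nt in place of 18 to 24 nt. Leaving out the muscle miRNAs, an alternative chosen after the data were seen, gave the values in the report. Counts of called start tags are given as higher and lower in the first library, for anagen against catagen, anagen against telogen and catagen against telogen. They were 514 and 235, 491 and 63, and 291 and 242 as reported. With no minimum of reads they were 1062 and 332, 987 and 100, and 529 and 419, and with at least 1000 reads 106 and 35, 85 and 5, and 44 and 53. edgeR's exact test at a coefficient of variation of 0.4 gave 148 and 18, 69 and 4, and 15 and 13, with adjusted p under 0.05. With size factors (0.689, 0.935 and 1.69) they were 587 and 163, 739 and 17, and 431 and 168, which moves the split between higher and lower towards the first library in each pair. Fisher's exact test and the ratio limit alone gave the counts as reported. No paired analysis was possible because each stage has 1 library.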
